A study of Rattus norvegicus with 3 samples.

Results

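Messenger RNA levels of 8 genes for monoamine signalling were followed in cultured ventricular myocytes from newborn rats: the adrenergic receptor genes Adra1a, Adra1b and Adrb1, the serotonin receptor genes Htr2a, Htr2b, Htr3a and Htr5a, and Maoa, which encodes monoamine oxidase A. They are receptors that the compounds may act on and an enzyme that degrades the receptors' natural ligands, listed by name with earlier results of these data known. All probe sets that the platform annotation pairs with 1 of these symbols were taken, which gave 11 of the 15866 non-control probe sets and 8 of the 10411 genes. Htr2a had 4 probe sets and each of the other genes had 1. Of the 8 genes, Adra1b was lower with both compounds, 3.26-fold with phenylephrine and 2.38-fold with PAMH. Maoa was the other gene above each background level tried on all 3 arrays, at 1.41-fold of its unstimulated level with phenylephrine and 1.02-fold with PAMH. The remaining 6 genes lay at or near background on at least 1 array. The arrays were Affymetrix rat arrays, on which a probe set is a group of short probes, in most cases for 1 transcript.

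The 3 groups were myocytes cultured with 20 µM phenylephrine, myocytes cultured with 1 µM PAMH and unstimulated myocytes, each kept in culture for 48 h. Phenylephrine activates α1-adrenergic receptors and makes cultured cardiac myocytes grow, and the submitters' keywords place PAMH beside hypertrophy and 5-hydroxytryptamine, the chemical name of serotonin. The labels name neither the rat strain nor the number of hearts or of cultures behind each array. Each group had 1 array, so the differences below could not be checked against replicates, no standard error or p-value could be computed, and the precision of each ratio is limited by this number of arrays. The doses differed between the compounds, so their values are set side by side.

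Adrenergic receptors bind noradrenaline and adrenaline. The α1 receptors couple through the G protein Gq to phospholipase C, calcium release and protein kinase C, a route known to drive growth of neonatal rat myocytes, whereas the β1 receptor couples through Gs to adenylyl cyclase and is the main receptor for the force and rate response of the heart. Of the serotonin receptors, the 5-HT2A and 5-HT2B receptors also couple to Gq, the 5-HT5A receptor couples to Gi, and the 5-HT3A protein is a subunit of a ligand-gated cation channel. Monoamine oxidase A sits in the outer mitochondrial membrane and oxidises serotonin and noradrenaline.

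Intensities are given after each array was multiplied by 1 factor that made the medians of the non-control probe sets equal. The factors were 1.02 for the phenylephrine array, 1.04 for the PAMH array and 0.937 for the unstimulated array. On the deposited values the median log2 shift against the unstimulated array was -0.13 with phenylephrine and -0.15 with PAMH, and every ratio below is relative to that shift. A probe set was taken to lie at background on an array where its intensity was below 76.0, which is percentile 40 of all values. As a second view of background, 36 genes typical of other tissues, such as liver, pancreas, retina and testis, were followed by their 42 probe sets, whose median intensity was 27.7. Of these probe sets, 8 reached the floor with phenylephrine, 6 with PAMH and 8 in unstimulated cells, so a value just above the floor does not by itself show expression. Percentile 95 of their values was 99.4.

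As a check of the labelled cell type, all 9 cardiac myocyte marker genes on the array lay above the floor on all 3 arrays, among them the troponin gene Tnnt2 and the myosin gene Myh6. The genes that mark the hypertrophic response were higher with both compounds. The B-type natriuretic peptide gene Nppb was 3.99-fold higher with phenylephrine and 4.57-fold higher with PAMH. The log2 ratios to unstimulated cells were 1.18 with phenylephrine and 1.38 with PAMH for Nppa, 1.09 and 1.25 for Acta1, 1.45 and 1.79 for Rcan1, and 0.59 and 0.90 for Myh7. Another probe set of Myh7 had 1.13 with phenylephrine and 1.52 with PAMH. By the brightest Myh7 probe set both ratios fell under 1.5-fold after quantile normalization, where they were 0.25 with phenylephrine and 0.31 with PAMH. Of 10 processing alternatives, 6 kept Myh7 past 1.5-fold with phenylephrine and 8 with PAMH, and the lowest phenylephrine ratio was 0.23.

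Of the 11 probe sets, 5 lay at or above the floor on all 3 arrays, 1 on 2 arrays, 1 on 1 array and 4 on none. The 5 stood for Adra1b, Htr2a, Htr3a, Htr5a and Maoa. Only Adra1b and Maoa stayed on all 3 arrays when the floor was raised to percentile 50, and Htr5a joined them when the floor was the percentile 95 of the genes of other tissues. Adra1a, Adrb1 and Htr2b lay at background on every array, as did 1 probe set of Htr2a.

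**Figure D1:**
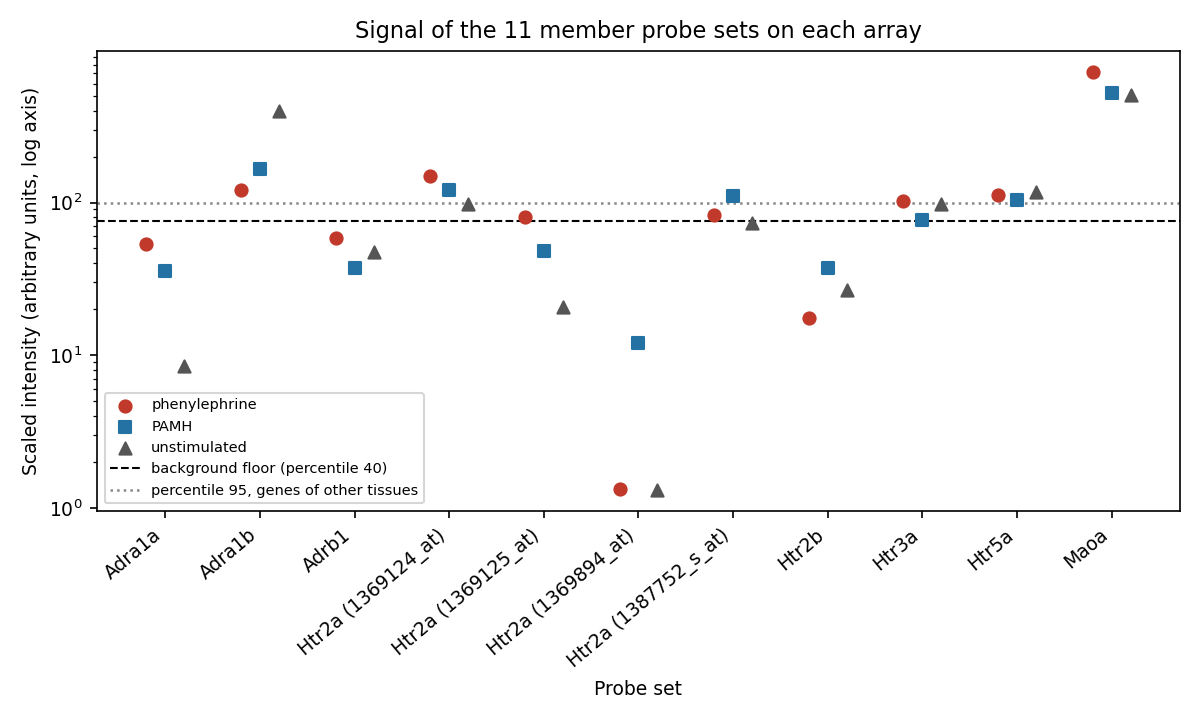
Scaled intensity (log axis, arbitrary units) of each of the 11 member probe sets on the phenylephrine, PAMH and unstimulated arrays, 1 point per array and no error bars because each group had 1 array. The dashed line is the background floor of 76.0 and the dotted line the percentile 95 of genes of other tissues, 99.4; Adra1b and Maoa lie above both on every array, and Adra1b is highest on the unstimulated array.

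Among the α1-adrenergic receptors, Adra1b, the gene of the α1B subtype, had an intensity of 121 with phenylephrine and 166 with PAMH, against 395 in unstimulated cells. Both treated arrays lay well below the unstimulated one, the phenylephrine array lower than the PAMH array, and all 3 above the floor. The 121 with phenylephrine was not far above 99.4, the percentile 95 of the genes of other tissues. On that array the brightest Htr2a probe set was higher, at 149. The log2 ratio to unstimulated cells was -1.71 with phenylephrine, which is 3.26-fold lower, and -1.25 with PAMH, which is 2.38-fold lower. Both comparisons use the same unstimulated array, so a deviation of that array would enter both ratios.

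The Adra1b ratio ranked 5 from the lowest of 6571 measured genes with phenylephrine and 20 from the lowest of 6549 with PAMH. Genes at least 2-fold lower made up 0.761% of all measured genes with phenylephrine and 0.794% with PAMH. Among the 500 probe sets nearest to Adra1b in signal, the middle 95% of log2 ratios ran from -0.71 to 1.18 with phenylephrine and from -0.70 to 0.89 with PAMH, and Adra1b lay below this range in both. Where a gene had several probe sets, their log2 ratios differed with an SD of 0.27 over 864 genes with phenylephrine and 0.29 over 867 genes with PAMH, a technical spread in which cultures play no part. Adra1b had a single probe set, so no second one was at hand to set against it.

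The RNA came from whole cultures, in which fewer cells of a type and less RNA per cell cannot be told apart. Fibroblasts are the main other cell type of such cultures, and 8 of 10 of their markers were measured in both comparisons. Of these 8, 1 was at least 1.5-fold lower with phenylephrine and 6 with PAMH, and none was higher at that threshold, by the brightest probe set of each. Among all genes, 4.54% were lower with phenylephrine and 4.17% with PAMH, and 8.9% and 9.31% were higher. With PAMH, Col1a1 had a log2 ratio of -0.64 by its brightest probe set and -0.04 by another, and Fbn1 had -0.93 and -0.41. Thy1 went the other way by its brightest probe set, with 0.53 with phenylephrine and 0.21 with PAMH. Another Thy1 probe set had -0.53 with phenylephrine. The summed intensity of the 10 markers was 7329 with phenylephrine and 5677 with PAMH, against 9538 in unstimulated cells, which makes log2 ratios of -0.38 (phenylephrine) and -0.75 (PAMH). Adra1b was lowest on the phenylephrine array, whereas this sum was lowest on the PAMH array. Their part in the Adra1b difference was not tested. The summed cardiac myocyte markers were 73198 with phenylephrine and 86127 with PAMH, against 63618 in unstimulated cells. The brightest genes dominate this sum, and the median log2 ratio of the 9 genes was -0.02 with phenylephrine and 0.30 with PAMH. Of the 9, 1 was at least 1.5-fold higher and 1 lower with phenylephrine, and 2 were higher and 1 lower with PAMH. The lower gene was Mb, with log2 ratios of -0.67 with phenylephrine and -0.67 with PAMH. Smooth muscle markers, 5 genes, summed to 7303 and 6176 with the compounds in that order, against 3235 in unstimulated cells. These genes did not move together. Acta2 had log2 ratios of 1.29 with phenylephrine and 1.52 with PAMH, Cnn1 had 2.85 and 2.48, and Tagln had 0.88 and 0.37. Myh11 had 0.02 with phenylephrine and -0.64 with PAMH, and Smtn had -0.36 and -0.19.

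Markers of the remaining cell types were mostly at background. Below the floor on all 3 arrays were 3 of 4 endothelial markers, 3 of 5 macrophage markers, 6 of 7 mast cell markers and 5 of 6 Schwann cell or sympathetic neuron markers. The defining markers Pecam1 of endothelium, Cd68 of macrophages, Cma1 of mast cells and Sox10 of Schwann cells were below the floor on every array. Other members of these lists, named after their values were seen, were above it: Uchl1 of neurons had 345 with phenylephrine and 308 with PAMH, against 238 in unstimulated cells, and Aif1 of macrophages had 103 and 135, against 91.2. Csf1r, also of macrophages, had 79.2 with phenylephrine and 110 with PAMH, against 72.5 in unstimulated cells, the last below the floor. The mast cell marker Cpa3 had 73.8 with phenylephrine and 113 with PAMH, against 80.1 in unstimulated cells, the first below the floor. The endothelial marker Tie1 had 79.8 with phenylephrine and 19.8 with PAMH, against 57.5 in unstimulated cells. It was above the floor with phenylephrine alone.

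The other α1 receptor gene among the members, Adra1a, had intensities of 53.7 with phenylephrine and 35.8 with PAMH, against 8.43 in unstimulated cells. All lay below the floor, so its ratio was left out of counts and ranks. Probe sets this dim spread widely. Among the 500 nearest in signal, the middle 95% of log2 ratios to unstimulated cells ran from -2.05 to 2.18 with phenylephrine. With PAMH the range was -2.47 to 2.29. Computed without the floor, the log2 ratio of Adra1a was 2.67 with phenylephrine, above that range, and 2.09 with PAMH, within it. Adrb1, the gene of the β1 receptor, was also below the floor throughout, at 58.7 with phenylephrine and 37.2 with PAMH, against 47.2 in unstimulated cells. At these signals a change in either gene was not measurable on these arrays.

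Htr2a, the gene of the 5-HT2A receptor, was measured by 4 probe sets that gave different signals. The brightest (1369124_at) had 149 with phenylephrine and 120 with PAMH, against 97.2 in unstimulated cells. All 3 values lay above the floor, with the unstimulated array lowest and below the percentile 95 of the genes of other tissues. Its log2 ratio was 0.62 with phenylephrine, or 1.54-fold, and 0.30 with PAMH, or 1.23-fold.

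A second Htr2a probe set (1387752_s_at) had 83.4 with phenylephrine and 111 with PAMH, against 73.7 in unstimulated cells, the last of these below the floor. The third (1369125_at) had 80.7 with phenylephrine and 48.1 with PAMH, against 20.7 in unstimulated cells, and was above the floor with phenylephrine alone. The fourth (1369894_at) had 1.33 with phenylephrine and 12.0 with PAMH, against 1.31 in unstimulated cells, far below the floor. The unstimulated array was lowest for 3 of 4 probe sets under each of the 4 other scalings tried and for 4 of 4 in the main one, where the fourth rested on 1.31 against 1.33, and the compound with the highest signal differed between probe sets.

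The ratios of the brightest Htr2a probe set lay within the spread of probe sets of like signal. Around the brightest probe set the middle 95% of log2 ratios ran from -0.82 to 1.07 with phenylephrine and from -0.91 to 1.05 with PAMH. The fourth probe set, far below the floor, had an unfiltered log2 ratio of 3.19 with PAMH. That was above the range of -2.09 to 2.34 around it. Of all measured genes, 8.9% reached 1.5-fold higher with phenylephrine, and Htr2a ranked 517 from the highest of 6571. Its phenylephrine ratio was 0.49 without further scaling, 0.58 when arrays were scaled on percentile 75 and 0.44 with an offset of 50, each under 1.5-fold.

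Htr2b, the gene of the 5-HT2B receptor, which in the mouse is needed for heart development, was below the floor on all arrays. Its intensities were 17.6 with phenylephrine and 37.4 with PAMH, against 26.9 in unstimulated cells, with no ratio given. Both Gq-coupled serotonin receptor genes among the 8 members therefore lay at or near background on the unstimulated array.

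Htr3a, the gene of the channel subunit, had 103 with phenylephrine and 76.6 with PAMH, against 97.3 in unstimulated cells. The PAMH array was lowest and within 1 unit of the floor. Its log2 ratio was 0.08 with phenylephrine, which turned to -0.04 on the deposited intensities, and -0.35 with PAMH. The PAMH ratio was lost on the deposited intensities, at 73.4 against a floor of 76.1, and with scaling on percentile 75, at 75.04 against 75.96, where the PAMH array fell below the floor. Htr5a, the gene of a receptor known mainly from brain, had 111 with phenylephrine and 105 with PAMH, against 117 in unstimulated cells. The 3 arrays lay close together, and the log2 ratios were -0.08 with phenylephrine and -0.17 with PAMH. The middle 95% of probe sets of like signal reached from -0.98 to 1.01 with phenylephrine around Htr5a, a far wider range than its ratios.

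Maoa had 719 with phenylephrine and 522 with PAMH, against 510 in unstimulated cells. The phenylephrine array stood above the other two, which lay close together. The log2 ratio was 0.50 with phenylephrine, or 1.41-fold, and 0.03 with PAMH, or 1.02-fold. Over all 10 processing alternatives the phenylephrine ratio stayed between 0.35 and 0.50, always higher and always under 1.5-fold, while the PAMH ratio ran from -0.12 to 0.03 and had no settled direction. Around Maoa the middle 95% of probe sets of like signal ran from -0.66 to 1.12 with phenylephrine. The suffix of its probe set, which the Htr2a probe set 1387752_s_at shares, marks probes that match more than 1 transcript. Maob, the gene of the related oxidase, lay below the floor by its own probe set, at 59.8 with phenylephrine and 70.4 with PAMH, against 67.8 in unstimulated cells.

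Counted by gene, 5 of 8 members could be compared with unstimulated cells. With phenylephrine, 1 was at least 1.5-fold higher (Htr2a) and 1 lower (Adra1b), where 8.9% of all genes were higher and 4.54% lower. With PAMH, none was higher and 1 was lower (Adra1b), where 9.31% of all genes were higher and 4.17% lower. The median log2 ratio of the 5 members was 0.08 with phenylephrine and -0.17 with PAMH, beside 0.07 and 0.10 over all measured genes. The split of all called genes depended on the scaling. With phenylephrine 66.3% of them were higher, but 43.3% on the deposited intensities and 55.1% after quantile normalization. With PAMH 69.1% were higher, but 40.5% on the deposited intensities, 58.2% when percentile 75 set the scale, 52.8% after quantile normalization and 53.7% after cyclic loess normalization.

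**Figure D2:**
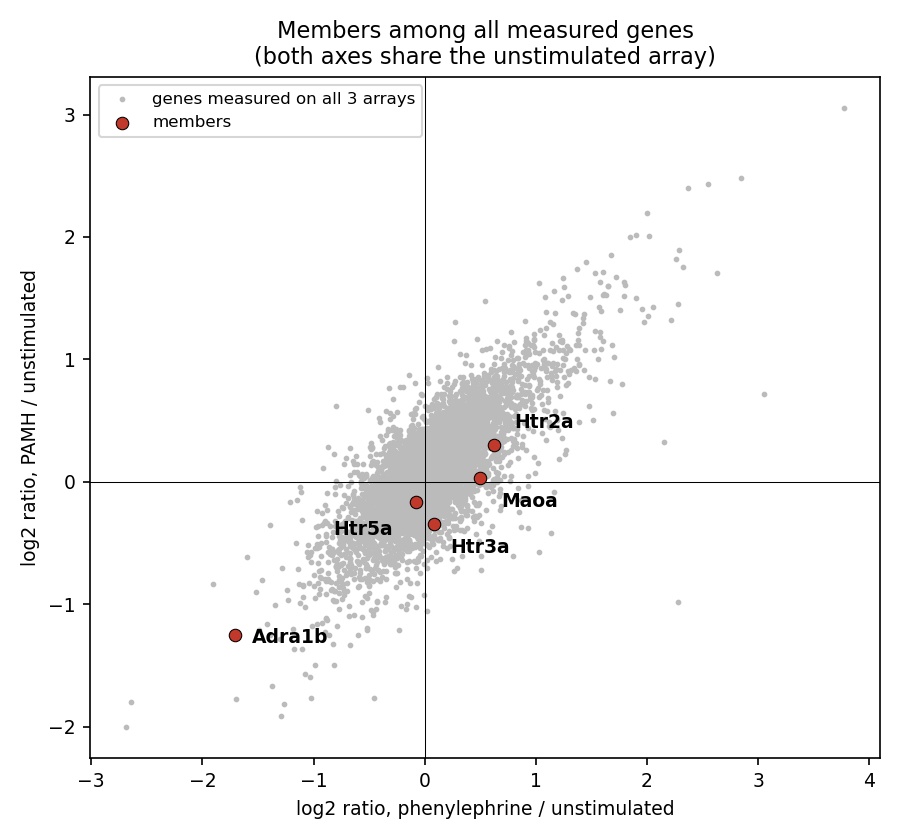
Log2 ratio to unstimulated cells with phenylephrine (horizontal) and with PAMH (vertical) for each gene above the floor on all 3 arrays, with the 5 measured members in red. Both axes share the unstimulated array, so the slope of the cloud is no result; Adra1b lies at -1.71 and -1.25, apart from the other members, which lie between -0.35 and 0.62 on both axes.

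Adra1b and Maoa were the only members above every floor tried on all 3 arrays, and the bases upstream of their annotated starts are shown for orientation, although the arrays did not measure promoter activity. The windows hold the 250 bases before the start in the RefSeq table for GRCr8, in which 5 of the 8 members were found. Capitals mark the GC box GGGCGG on either strand, a binding element of Sp1-type factors.
Adra1b, chr10:28814348-28814597, minus strand: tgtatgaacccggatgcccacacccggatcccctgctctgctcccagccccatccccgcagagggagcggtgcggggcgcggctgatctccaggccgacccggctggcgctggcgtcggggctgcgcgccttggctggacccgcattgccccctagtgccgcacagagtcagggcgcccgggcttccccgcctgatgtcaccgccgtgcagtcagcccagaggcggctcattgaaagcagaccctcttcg
Maoa, chrX:8681373-8681622, minus strand: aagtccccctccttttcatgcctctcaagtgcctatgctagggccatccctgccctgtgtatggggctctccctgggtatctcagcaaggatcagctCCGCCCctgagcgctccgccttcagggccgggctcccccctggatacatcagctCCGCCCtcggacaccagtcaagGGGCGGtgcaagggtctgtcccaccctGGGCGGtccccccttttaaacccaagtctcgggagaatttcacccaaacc
The Maoa window held 4 GC boxes, which began between 153 and 50 bases before the start, and the Adra1b window held none. The share of all 27456 RefSeq windows of this length with at least 1 was 32.4%. The TATA box TATAAA and the GATA site AGATAA, searched on both strands, were in neither window, and in 13.1% and 10.05% of all windows. The G and C content was 70.8% for Adra1b and 62.4% for Maoa, beside a median of 52% over all windows.

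The remaining receptors of both families, taken from lists of related genes, were largely at background. Of 5 other adrenergic receptor genes on the array, none could be compared with unstimulated cells and 3 were below the floor on all arrays. Adra1d, the third α1 receptor gene, had 39.8 with phenylephrine and 11.8 with PAMH, against 94.9 in unstimulated cells, so it passed the floor in unstimulated cells alone. Adrb3 had 68.7 with phenylephrine and 92.4 with PAMH, against 51.6 in unstimulated cells. Of 10 other serotonin receptor genes, 6 were below the floor on all arrays and none was above it on all 3. Htr1b, the gene of a Gi-coupled receptor, had 55.4 with phenylephrine and 139 with PAMH, against 97.1 in unstimulated cells, the phenylephrine array being the one below the floor.

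Of 12 other genes of monoamine synthesis, transport and breakdown, 8 were below the floor on all arrays. The 3 measured in both comparisons were Aldh2, Ddc and Slc18a2. Aldh2, a mitochondrial aldehyde dehydrogenase that acts downstream of monoamine oxidase, had 928 with phenylephrine and 976 with PAMH, against 604 in unstimulated cells. It was 1.54-fold higher with phenylephrine and 1.62-fold higher with PAMH, but past 1.5-fold under 5 and 7 of the 10 alternatives, in that order. Ddc, the gene of aromatic amino acid decarboxylase, had log2 ratios of -0.44 with phenylephrine and -0.55 with PAMH by its brightest probe set, and 0.08 and -0.31 by another.

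The list for Gq coupling and phospholipase C, the route of the α1 and 5-HT2 receptors, had 9 measured genes. None of the 9 was 1.5-fold higher or lower with either compound. Over all genes, 8.9% were higher and 4.54% lower with phenylephrine, and 9.31% and 4.17% with PAMH. A count of 0 among 9 genes is near those shares. Their log2 ratios ran from -0.44 to 0.57 with phenylephrine, with a median of 0.28, and from -0.21 to 0.55 with PAMH, with a median of 0.15, beside medians of 0.07 and 0.10 over all genes. Of the brightest genes in the list, the phospholipase gene Plcb4 had 0.31 with phenylephrine and -0.21 with PAMH, and the protein kinase C gene Prkcd had -0.44 and 0.00. Gna12, which the list also holds, is the gene of a related G protein α subunit outside the Gq family. It had -0.34 with phenylephrine and -0.06 with PAMH by its brightest probe set, and -0.07 and 0.37 by another. The calcium release channel gene Itpr1 had 0.28 and 0.19.

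The list for Gs and Gi coupling and adenylyl cyclase, the route of the β1 receptor, had 10 measured genes. Of these, 1 was at least 1.5-fold higher and 1 lower with phenylephrine, and 3 were higher and none lower with PAMH. Over all genes, 8.9% were higher and 4.54% lower with phenylephrine, and 9.31% and 4.17% with PAMH. Adcy5, a main adenylyl cyclase of heart, had 141 with phenylephrine and 208 with PAMH, against 263 in unstimulated cells, 1.87-fold lower with phenylephrine and 1.26-fold lower with PAMH. Prkar2b, a regulatory subunit of protein kinase A, was 1.84-fold higher with phenylephrine and 1.65-fold higher with PAMH. Gnas, the gene of the Gs α subunit, and Adcy3 were the other 2 genes past 1.5-fold with PAMH, at 1.52-fold and 1.51-fold. Gnas was under 1.5-fold with PAMH under each of the 4 other scalings (log2 0.22 to 0.54), and Adcy3 stayed past it under 5 of the 8 alternatives that gave a value.

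Genes that switch off these receptors or the G protein signals behind them included 6 measured in both comparisons. At least 1.5-fold higher were 2 with phenylephrine and 1 with PAMH, beside 8.9% and 9.31% of all genes. Grk5, a kinase that phosphorylates activated receptors, had 289 with phenylephrine and 250 with PAMH, against 163 in unstimulated cells. Both treated arrays lay above the unstimulated one, 1.78-fold with phenylephrine and 1.54-fold with PAMH, the second staying past 1.5-fold under 6 of 10 alternatives, with a lowest log2 ratio of 0.47 on the deposited intensities. Rgs2, which shortens Gq signals, had 603 with phenylephrine and 243 with PAMH, against 316 in unstimulated cells. The phenylephrine array was the highest and the PAMH array the lowest, with log2 ratios of 0.93 with phenylephrine and -0.38 with PAMH, and another probe set had 0.94 and -0.53.

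Other receptors of cardiac growth agonists were examined beside Adra1b. Of 6 measured in both comparisons, 1 was at least 1.5-fold lower with phenylephrine and none with PAMH, and none was higher. Among all genes, 4.54% were lower with phenylephrine and 4.17% with PAMH, and 8.9% and 9.31% were higher. Lpar1, a receptor for lysophosphatidic acid, had 125 with phenylephrine and 170 with PAMH, against 252 in unstimulated cells. Its arrays had the same order as those of Adra1b, with 2.03-fold lower levels with phenylephrine and 1.49-fold lower levels with PAMH. With PAMH it was past 1.5-fold lower under 4 of 10 alternatives, which were the 4 other scalings, with log2 ratios from -0.73 to -0.60. Another probe set of Lpar1 had a log2 ratio of -0.65 with phenylephrine. F2r, the thrombin receptor gene, had log2 ratios of -0.17 with phenylephrine and -0.37 with PAMH, Il6st, the shared receptor subunit of the interleukin 6 family, had 0.07 and -0.12, and Ptgfr, the prostaglandin F receptor gene, had -0.02 and 0.23.

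**Figure D3:**
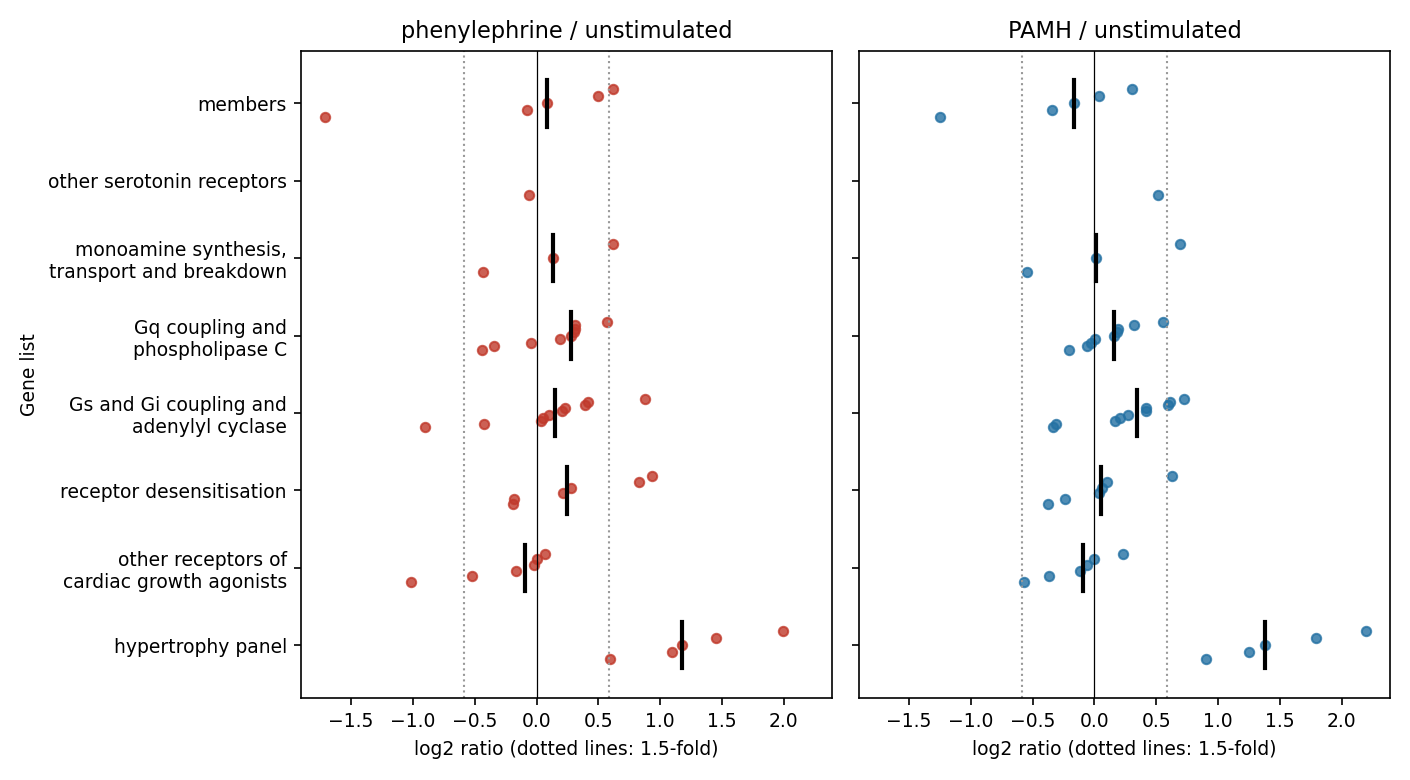
Log2 ratio to unstimulated cells of each measured gene in 8 lists, with phenylephrine on the left and PAMH on the right; each point is 1 gene, thick black lines are list medians and dotted lines mark 1.5-fold. Adra1b is the lowest point of all lists at -1.71 and -1.25, and all 5 genes of the hypertrophy panel lie to the right of the upper 1.5-fold line.

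Genes with the most similar pattern were sought by the distance between the pairs of log2 ratios over the 3 arrays, among genes above the floor on all of them and within 2-fold of the member in mean signal. Adra1b had no gene within 0.25 log2 units among 3747. Few genes have ratios this low, so this restates its rank and is no separate result. The nearest were Zcchc24 at 0.30, with log2 ratios of -1.42 with phenylephrine and -1.17 with PAMH, S100a13 at 0.40, with -1.52 and -0.90, and Ogn, the gene of the matrix proteoglycan osteoglycin, at 0.40, with -1.30 and -1.28. The other members had many like genes within that distance, 136 of 2464 for Maoa, 154 of 2750 for Htr2a, 193 of 1938 for Htr3a and 570 of 2442 for Htr5a. The nearest to Maoa were Fbl, Tars1 and Ppp1r14b, to Htr2a Agpat4, Nfil3 and Mob2, to Htr3a Poc5, Trpv5 and Cpeb3, and to Htr5a C4h2orf42, Sstr3 and Zfp217.

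**Figure D4:**
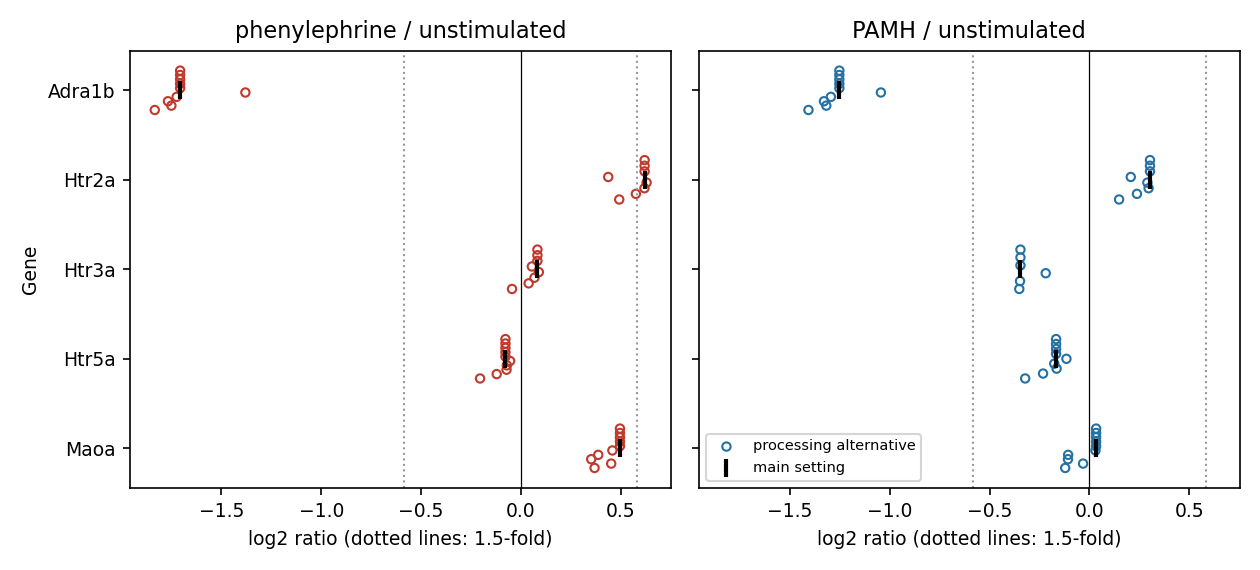
Log2 ratio to unstimulated cells of the 5 measured members with phenylephrine (left) and PAMH (right), with the main setting as a black tick, each processing alternative as an open circle and 1.5-fold as dotted lines. Adra1b stays between -1.83 and -1.38 with phenylephrine and between -1.41 and -1.04 with PAMH, while Htr2a crosses the 1.5-fold line with phenylephrine.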

How the data were processed

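The authors deposited 1 linear intensity for each probe set on each array. They came from steps not given in the sources used here, and all 3 arrays had a mean of 250.1 once the outer 2% on both sides were set aside. Of 15923 probe sets, 57 controls were left out. Of the others, 12783 had 1 gene symbol in the platform annotation, 312 several and 2771 none, and 12748 of the 12783 were found by gene identifier in the current rat gene table, from which symbols were updated. Arrays were scaled to equal medians, the floor was set at percentile 40 (76.0), and log2 ratios were computed where both arrays reached it. The brightest probe set stood for a gene in counts and ranks. Counts used 1.5-fold. No test was made, with 1 array per group. The members, the lists of related genes and the marker lists were chosen with earlier results of these data known. Named genes were all members, the genes of related lists past 1.5-fold with up to 4 more by signal, the hypertrophy genes and the 3 nearest pattern neighbours per member. Markers and genes of other tissues are named as examples. The ratio computation was tested on simulated data. The changed genes there had 1 probe set and an unstimulated signal above that of every member but Adra1b and Maoa, so dim signals were not covered. Quantile and cyclic loess alternatives came from limma 3.58.1 in R 4.3.3, and the rest from pandas 2.3.3 and numpy 2.4.6 in Python 3.11.15.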

Additional observations from a re-analysis of the deposited data

How the results depend on the processing

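Adra1b was at least 1.5-fold lower with both compounds under all 10 alternatives, between -1.83 and -1.38 (log2) with phenylephrine and between -1.41 and -1.04 with PAMH. The Htr2a ratio with phenylephrine was past 1.5-fold under 5 of the 8 alternatives that gave a value. Members past 1.5-fold with phenylephrine numbered 2, but 1 on the deposited intensities, when percentile 75 set the scale, with an offset of 50, with the floor at percentile 50 and with the floor from genes of other tissues; in these 5 settings 0 members were higher, against 1. Without a filter on dim values, 4 members passed with phenylephrine (2 higher, 2 lower) and 2 with PAMH (1 higher, against 0 with the filter), Adra1a being the added higher gene and Htr2b the added lower one. Probe sets above the floor on all arrays numbered 5, but 2 with the floor at percentile 50 and 3 with that from genes of other tissues; 4 were below it on all arrays, and 2 with the floor at percentile 30. Of all genes, 585 were 1.5-fold higher and 298 lower with phenylephrine; these were 1475 and 1095 without the filter, and the lower ones 519 on the deposited intensities and 177 with an offset of 50. With PAMH, 610 were higher and 273 lower, against 350 and 515 on the deposited intensities, 1488 and 1216 without the filter, and 158 lower with an offset of 50. The cause of these differences was not tested beyond how each setting is built. No paired analysis was possible because each group had 1 array. Signal near background limits what can be said of all members but Adra1b and Maoa. For Adra1b the value with phenylephrine, 121, was not far above the percentile 95 of genes of other tissues, 99.4.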
